A study of Homo sapiens with 4 samples.

Results

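The Hippo pathway and the target genes of its effectors YAP and TAZ were followed in SCC-15, a long-established cell line from a human squamous carcinoma of the tongue, after transfection with a microRNA mimic or with a negative control. Members were the 32 genes of a list of pathway components and YAP/TAZ targets, read through every probe set that the platform annotation assigns to exactly 1 of these genes, which gave 32 of the 18132 genes with such a probe set and 94 of the array's 49293 probe sets. The mimic group (2 arrays) received a synthetic microRNA and the control group (2 arrays) received the oligonucleotide labelled miR-NC, each at 30 nM. All cells were of this 1 line, were transfected 24 h after seeding and were collected 36 h after transfection. The mimic was called miR-762 in the series title and design text and miR-585-5p in the labels of both mimic samples, so the group is called mimic here. The labels do not say that replicates came from separate cultures, so the spread behind each p-value is that between arrays and may be purely technical.

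The Hippo pathway is a kinase cascade. The kinases MST1 and MST2 (genes STK4 and STK3), with the scaffold SAV1, activate LATS1 and LATS2, which with MOB1 phosphorylate the coactivators YAP (YAP1) and TAZ (WWTR1) and keep them out of the nucleus. Unphosphorylated YAP and TAZ bind the TEAD transcription factors and switch on genes such as CCN1, CCN2 and ANKRD1. Most of this control acts on protein phosphorylation and location, which messenger RNA levels do not measure. In squamous epithelium the pathway is known for linking cell density and tension to growth.

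The mature sequences of the microRNAs that carry these names are shown because the sources disagree on which was transfected. They are from RefSeq (GRCh38.p14), 5′ to 3′, with the seed, bases 2 to 8, in capitals.
hsa-miR-762: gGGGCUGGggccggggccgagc
hsa-miR-585-5p: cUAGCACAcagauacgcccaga
hsa-miR-762 lies at chr16:30893951-30893972 (+ strand) and hsa-miR-585-5p at chr5:169263649-169263670 (- strand), and both are 22 bases long. Of the 2545 mature human entries of the table, 3 others share the miR-762 seed (hsa-miR-4492, hsa-miR-4498 and hsa-miR-5001-5p) and 0 share that of miR-585-5p. Target sites in the members' transcripts were not analysed here.

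Values are log2 of the deposited RMA intensity of a probe set, and differences are mimic minus control. RMA corrects background, equalises the distribution of intensities across arrays and summarises the probes of a set. Replicate arrays correlated at r = 0.998 (mimic) and 0.997 (control) over the whole array, against 0.991 between groups, where the points are probe sets and not independent. Of 10 squamous epithelial marker genes, the 7 with a probe set all passed the filter on dim probe sets, with mean levels of 7.81 to 12.07. Their summed log2 level was 70.59 and 70.77 in the mimic arrays and 68.66 and 68.22 in the control arrays. Of the 7, 3 (KRT5, KRT14 and ITGB4) were called higher, where 17.7% of all genes were. The leukocyte genes PTPRC and ITGAM, the endothelial gene TEK and the fibroblast genes COL3A1, DCN, LUM and PDGFRA were left out as dim. The leukocyte genes CD3E, CD14 and CD68 passed the filter, with means of at most 5.85. The endothelial genes PECAM1, VWF, CDH5 and KDR also passed, with means of at most 4.83. The fibroblast genes COL1A1, COL1A2, PDGFRB and FAP passed the filter, the highest being FAP with a mean of 5.92 and a difference of 0.20 that was not called. The sum over 5 leukocyte markers was 18.76 and 18.99 against 18.23 and 17.86, with CD14 and CD68 called higher. The sum over 8 fibroblast markers was 25.20 and 25.89 against 26.61 and 26.60. Over 5 endothelial markers it was 19.07 and 19.06 against 19.60 and 19.81. In the fibroblast and endothelial lists, 0 were called by limma and 1 each had an unadjusted p under 0.05. The sums include dim genes: 2 leukocyte, 4 fibroblast and 1 endothelial. The dim fibroblast genes differed by -0.31 (COL3A1), -0.30 (DCN), -0.25 (PDGFRA) and 0.11 (LUM). Part of the shift of the fibroblast sum thus came from below the filter. The part of these shifts in the results below was not tested. All cells were of 1 line, so the sums were not read as numbers of other cell types. In bulk RNA a change in some of the cells and a change in all of them cannot be told apart.

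Among the 32 members the coactivator gene WWTR1 and the target gene CCN2 rose most, by 2.49-fold and 2.04-fold, while YAP1, CCN1 and most genes of the kinase core did not pass the test. Smaller increases were found for the cadherin gene FAT1, the kinase genes STK3 and TAOK1, the receptor gene AXL, the LATS inhibitor genes AJUBA and LIMD1, and TEAD4. FRMD6 and TEAD3 fell. Each gene was represented by its brightest probe set, after probe sets with a mean below 2.83 were left out as dim. Of the 32 members, 28 were tested and 4 (LATS1, AMOT, PTPN14 and ANKRD1) had only dim probe sets. Of the 28 tested, 9 rose, 2 fell and 17 failed the test (limma, Benjamini-Hochberg adjusted p under 0.05 over 14340 genes). That was 32.1% higher, where 17.7% of all genes were called higher, and 7.14% lower, where 12.3% of all genes were called lower. In either direction it was 39.3% against 30.1% of all genes. The median difference was 0.02 over the 28 genes and -0.02 over all genes.

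These calls rest on few arrays. When either mimic array was left out, no gene of the whole table passed in limma; of the members, 0 passed and 11 (without mimic replicate 1) and 10 (without mimic replicate 2) had an unadjusted p under 0.05. With control replicate 1 left out, WWTR1, CCN2 and FAT1 still passed, and without control replicate 2, WWTR1 and CCN2. All 11 called genes had the same sign on leaving out any array. A further quantile normalization of the deposited values moved the median of all genes to -0.07 and turned the balance of all calls, from 17.7% of genes higher and 12.3% lower to 14.4% higher and 18.3% lower. Of the members it gave 8 higher and 5 lower: TEAD4 was no longer called, and MOB1A, WWC1 and VGLL4 were called lower.

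**Figure D1:**
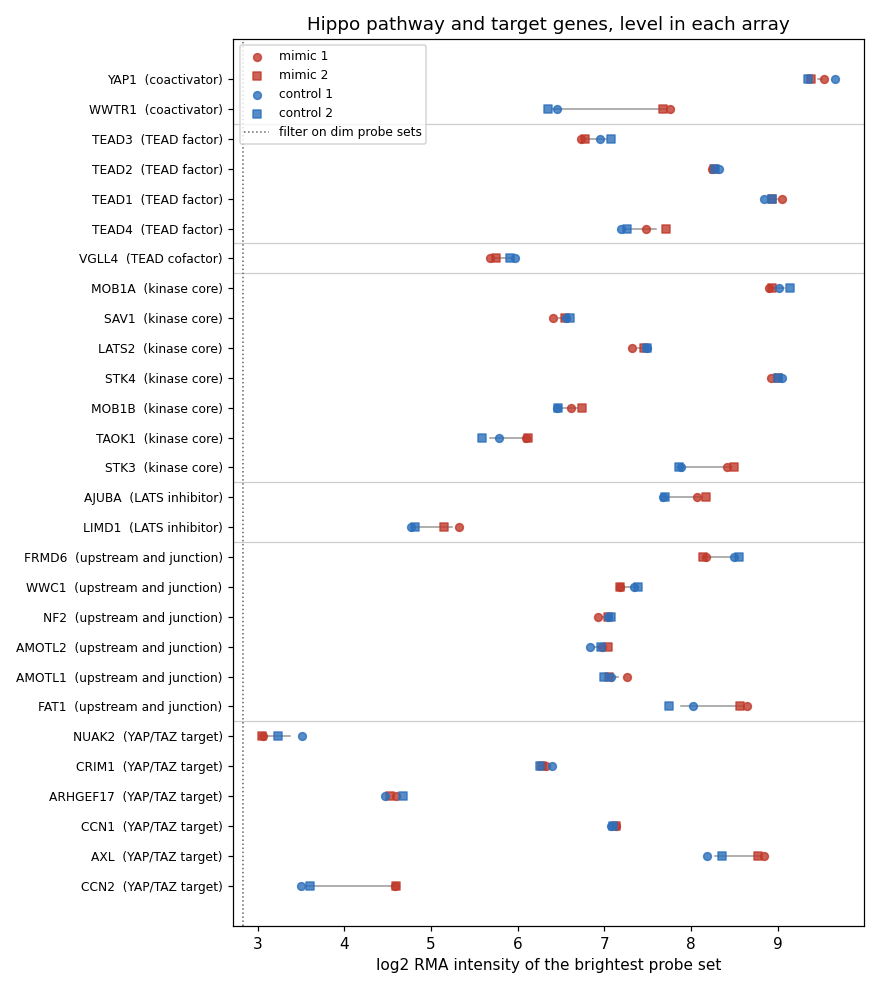
Log2 RMA intensity (horizontal axis) of the brightest probe set of each of the 28 tested genes, grouped by role, with 1 point per array (red, mimic; blue, control; circle, replicate 1; square, replicate 2) and a grey line between group means. Levels of different genes come from different probes and are not comparable; the widest gaps between red and blue points are those of WWTR1 and CCN2, and the dotted line marks the dim filter at 2.83.

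Of the 2 coactivator genes, 1 rose and 1 did not pass, where 17.7% of all genes were called higher. Such counts by role cover few genes and are not results about a role. WWTR1, which encodes TAZ, was at 7.75 and 7.67 in the mimic arrays and at 6.45 and 6.35 in the control arrays. Both mimic arrays lay above both controls, by 1.31 ± 0.068 (SE; 7.71 ± 0.06 against 6.40 ± 0.07, SD, n = 2; adjusted p = 0.00113 in limma). A second probe set of WWTR1 gave 7.19 and 7.17 against 6.03 and 6.01, a difference of 1.16. The third gave 6.52 and 6.60 against 6.66 and 6.70, a difference of -0.12 that did not pass. The 3 probe sets therefore disagreed, and with their mean in place of the brightest the difference of WWTR1 was 0.79, which passed. Which transcripts of the gene each probe set reads was not analysed here.

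YAP1, the gene of YAP, was at 9.53 and 9.38 in the mimic arrays and at 9.66 and 9.35 in the controls, so that the groups overlapped. Its difference was -0.05, with a 95% interval of -0.36 to 0.27 and an adjusted p of 0.795 in limma. Of its 8 probe sets, 2 had a positive and 6 a negative difference, and the 4 brightest lay between -0.37 and -0.05. In a fit of all 31711 probe sets, 1 of them fell (9.17 and 9.18 against 9.52 and 9.57, -0.37 ± 0.064 SE, adjusted p = 0.0191) and 7 did not pass.

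**Figure D2:**
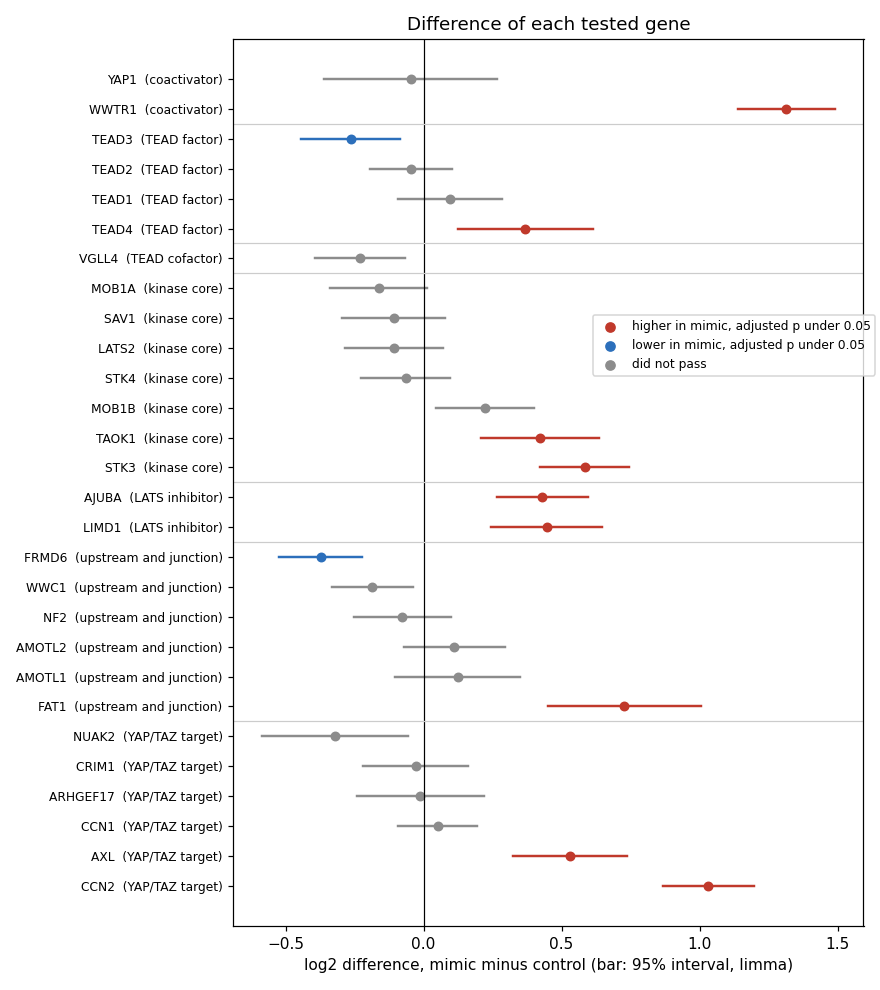
Log2 difference, mimic minus control, of the 28 tested genes (horizontal axis; bars are 95% intervals from limma), grouped by role. Red points passed as higher (9 genes), blue points as lower (2 genes) and grey points did not pass (17 genes); the intervals of WWTR1 and CCN2 lie apart from those of the other coactivator and of CCN1.

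Among the 4 TEAD genes, which encode the DNA-binding partners of YAP and TAZ, 1 rose, 1 fell and 2 did not pass. Of all genes, 17.7% were called higher and 12.3% lower. TEAD4 was at 7.48 and 7.71 in the mimic arrays and at 7.19 and 7.26 in the controls, higher by 0.37 ± 0.095 (SE; adjusted p = 0.043). TEAD3 was at 6.73 and 6.77 against 6.95 and 7.08, lower by 0.26 (SE 0.070; adjusted p = 0.0456). The groups did not overlap for either gene, but each has 1 probe set and both calls were close to the threshold. In the fit of all probe sets neither passed in limma (adjusted p = 0.0544 and 0.0625), and each call was lost on leaving out any array.

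TEAD1 (0.09, 95% interval -0.09 to 0.28) and TEAD2 (-0.04, -0.19 to 0.10) did not pass. A dimmer probe set of TEAD2 fell, from 5.12 and 4.92 in the controls to 4.58 and 4.46 in the mimic arrays (-0.50, adjusted p = 0.0254 in limma), while the 3 others of that gene lay between -0.04 and 0.03. TEAD1 had probe sets of both signs, from -0.36 to 0.09 among the tested ones. VGLL4, which competes with YAP for TEAD, was at 5.68 and 5.75 against 5.97 and 5.91 and missed the threshold (-0.23, adjusted p = 0.0508 in limma). Of its 3 probe sets, 2 were negative and the third gave 0.15.

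In the kinase core, 2 of 7 tested genes rose and 5 did not pass, where 17.7% of all genes were called higher. STK3, which encodes the MST2 kinase, was at 8.41 and 8.50 in the mimic arrays and at 7.88 and 7.86 in the controls. It rose by 0.58 ± 0.063 (SE), or 1.50-fold (adjusted p = 0.00488 in limma), with both mimic arrays above both controls. Its 3 tested probe sets were all positive, at 0.28, 0.37 and 0.58. The call was lost on leaving out any array, and when _s_at and _x_at probe sets, which can match several transcripts or genes, were dropped (0.28, adjusted p = 0.0553).

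TAOK1, a kinase that acts on MST, was at 6.10 and 6.12 against 5.78 and 5.59 and rose by 0.42 ± 0.083 (SE; adjusted p = 0.0218 in limma). Its other probe set gave 0.10, and with the mean of both the call was lost, as it was on leaving out any array. STK4, which encodes MST1, did not pass (-0.07, 95% interval -0.23 to 0.10), and its 6 probe sets lay between -0.17 and 0.06. The scaffold gene SAV1 (-0.11) and LATS2 (-0.11, 95% interval -0.29 to 0.07) did not pass either. The 3 probe sets of LATS1 were dim on all arrays, with means of at most 2.40, so its level was not measured above the filter.

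MOB1A and MOB1B encode near-identical coactivators of LATS. The brightest MOB1A probe set was at 8.90 and 8.93 in the mimic arrays and at 9.02 and 9.14 in the controls, a difference of -0.16 that did not pass. All 5 of its probe sets were negative, from -0.33 to -0.14, and 2 of them fell in the fit of all probe sets (-0.33 and -0.31, adjusted p = 0.0497 and 0.0334 in limma). MOB1B was at 6.62 and 6.74 against 6.45 and 6.47, a difference of 0.22 (adjusted p = 0.0658 in limma). Probe sets of such close copies may not separate them.

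Both LIM-domain genes among the 32 members, whose proteins restrain LATS, rose, where 17.7% of all genes were called higher. Of the further list, WTIP (0.04), TRIP6 (-0.12) and ZYX (-0.04), also LIM-domain genes and named after their values were seen, did not pass. AJUBA was at 8.07 and 8.17 in the mimic arrays and at 7.68 and 7.70 in the controls, a rise of 0.43 ± 0.064 (SE), or 1.35-fold (adjusted p = 0.0109 in limma). Its 3 probe sets were all positive, from 0.38 to 0.55, and 2 of them passed on their own. LIMD1 was at 5.32 and 5.16 against 4.76 and 4.82, a rise of 0.45 ± 0.078 (SE), or 1.36-fold (adjusted p = 0.0162). Its second probe set was dim. In both genes the mimic arrays lay above the controls, and both calls were lost on leaving out any array.

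Of the 6 tested upstream and junction genes, 1 rose, 1 fell and 4 did not pass. The shares over all genes were 17.7% higher and 12.3% lower. FAT1, which encodes a giant cadherin that promotes assembly of the kinase core, was at 8.65 and 8.56 in the mimic arrays and at 8.02 and 7.74 in the controls. It rose by 0.73 ± 0.11 (SE), or 1.65-fold (adjusted p = 0.0108 in limma), with an SD of 0.20 between control arrays and of 0.06 between mimic arrays. It has 1 probe set, and the difference was 0.87 without control replicate 1 and 0.59 without control replicate 2, where the call was lost. FRMD6, a FERM-domain gene upstream of the kinases, was at 8.17 and 8.13 against 8.50 and 8.55 and fell by 0.37 (SE 0.059; adjusted p = 0.0126), a call lost on leaving out any array.

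NF2, which encodes the tumour suppressor Merlin, had 6 tested probe sets between -0.09 and 0.08, of which 0 passed in limma, and its brightest gave -0.08 with a 95% interval of -0.25 to 0.10. WWC1, the gene of KIBRA, was at 7.18 and 7.18 in the mimic arrays and at 7.34 and 7.39 in the controls, a difference of -0.19 that did not pass (adjusted p = 0.0662 in limma). AMOTL1 (0.12) and AMOTL2 (0.11), whose proteins hold YAP at junctions, did not pass, and their probe sets had both signs. AMOT had 4 probe sets and PTPN14 1, and all were dim.

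**Figure D3:**
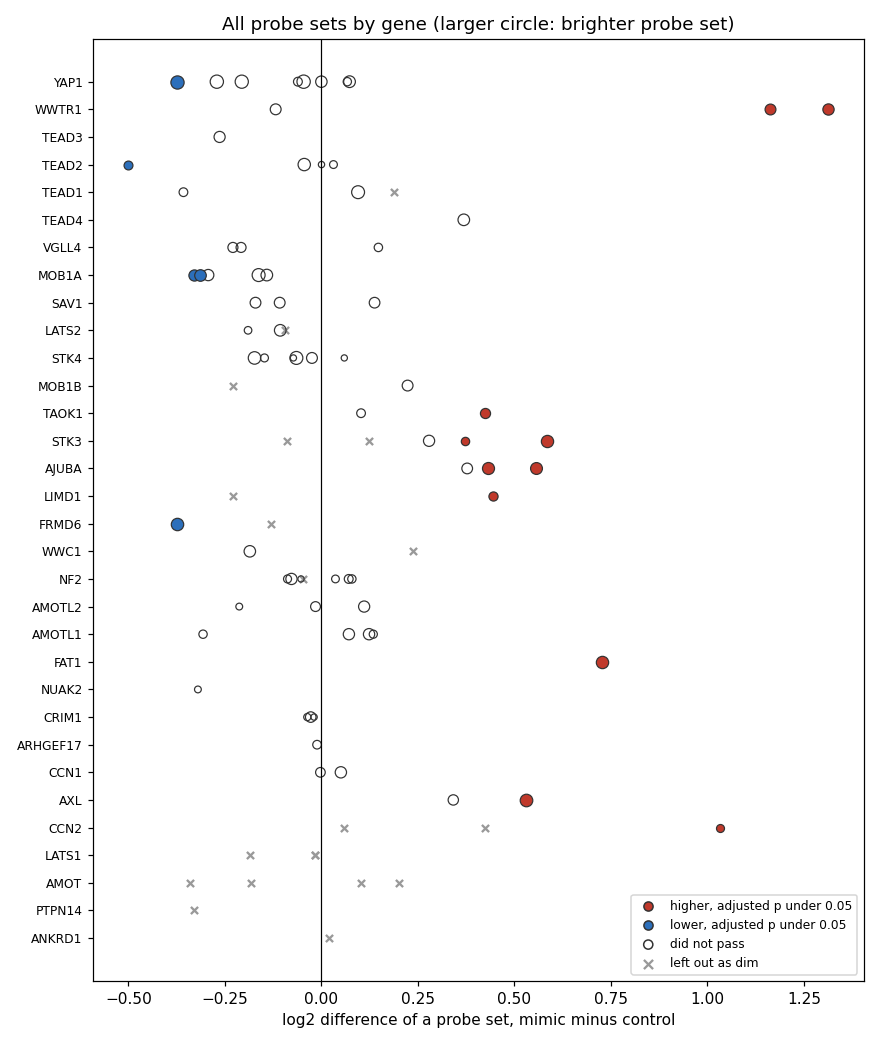
Log2 difference, mimic minus control, of all 94 probe sets of the 32 genes (horizontal axis), with 1 row per gene; circle area grows with the mean level, filled circles passed in the fit of all probe sets (red higher, blue lower), open circles did not and crosses were left out as dim. Probe sets of WWTR1 split between 2 near 1.2 and 1 near 0, and those of STK3 that were tested, AJUBA and AXL lie on the positive side.

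Counted by probe set, 74 of the 94 were tested and 20 were dim. Of the 74, 11 rose and 5 fell (limma, adjusted over 31711 probe sets), or 14.9% and 6.76%, where 14.5% and 7.95% of all probe sets were called higher and lower. On this count the members' shares were near those of the whole array. Of the 18 genes with several tested probe sets, 11 had both signs.

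Among the 7 YAP/TAZ target genes, CCN2 and AXL rose, 4 did not pass and ANKRD1 was not tested. That is 2 of 6 tested genes, where 17.7% of all genes were called higher. CCN2, formerly CTGF, encodes a secreted matricellular protein and is among the most used readouts of YAP and TAZ. It was at 4.58 and 4.59 in the mimic arrays and at 3.51 and 3.60 in the controls, a rise of 1.03 ± 0.064 (SE; 4.59 ± 0.01 against 3.56 ± 0.07, SD, n = 2; adjusted p = 0.00144 in limma). The groups were far apart relative to their spread. This rests on 1 probe set of the _s_at kind with a low signal, whose mean of 4.07 was in the lower 50% of probe sets. The other 2 were dim, at 2.44 and 2.30 against 2.03 and 1.86, and at 2.45 and 2.48 against 2.36 and 2.45. With log2 of intensity plus 16 the difference was 0.53, which still passed, and with the lowest 50% of probe sets left out CCN2 was not tested.

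AXL, a receptor tyrosine kinase gene, was at 8.84 and 8.77 in the mimic arrays and at 8.19 and 8.36 in the controls. It rose by 0.53 ± 0.080 (SE), or 1.44-fold (adjusted p = 0.0115 in limma), and its other probe set gave 0.34. The call was lost on leaving out any array. CCN1, formerly CYR61, the closest relative of CCN2 in the list, was at 7.13 and 7.14 against 7.07 and 7.09, so that its difference was 0.05, with a 95% interval of -0.09 to 0.19. CRIM1 (-0.03, -0.22 to 0.16) and ARHGEF17 (-0.01, -0.24 to 0.22) did not pass and their groups overlapped. The kinase gene NUAK2 was at 3.06 and 3.05 against 3.51 and 3.24, a difference of -0.32 that did not pass (adjusted p = 0.0722 in limma). ANKRD1, a cardiac ankyrin repeat gene, was dim on all arrays, at 2.35 and 2.37 against 2.33 and 2.35.

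The promoters of 3 target genes are shown because they carry several copies of the TEAD core motif. Of these genes CCN2 rose, NUAK2 did not pass and ANKRD1 was dim and not tested. Their brightest probe sets had low means, at 4.07 (CCN2), 3.22 (NUAK2) and 2.35 (ANKRD1). The probe set of NUAK2 alone differed by -0.32, and one shared with AKIP1, which was in no test, by 0.33. Whether copies of the motif go with a response was therefore not tested. The motif searched was GGAATG, or CATTCC on the other strand, which do not overlap each other. Windows ran from 250 bases before to 50 bases after a start of the gene (RefSeq, GRCh38.p14), and no other start of a gene was searched. Of the 32 members, 25 had a promoter in the table, and those of CCN1, CRIM1, ARHGEF17, TEAD1, TEAD4, LIMD1 and STK3 had no entry. The 250 bases before the start are printed 5′ to 3′ on the gene's strand, with matches in capitals.
CCN2 (chr6:131951373-131951622, - strand): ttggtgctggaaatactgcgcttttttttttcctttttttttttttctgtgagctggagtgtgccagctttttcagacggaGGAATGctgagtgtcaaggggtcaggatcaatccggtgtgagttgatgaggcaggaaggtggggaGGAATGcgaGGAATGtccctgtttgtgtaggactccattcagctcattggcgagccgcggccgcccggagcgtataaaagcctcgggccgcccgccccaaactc
ANKRD1 (chr10:90921088-90921337, - strand): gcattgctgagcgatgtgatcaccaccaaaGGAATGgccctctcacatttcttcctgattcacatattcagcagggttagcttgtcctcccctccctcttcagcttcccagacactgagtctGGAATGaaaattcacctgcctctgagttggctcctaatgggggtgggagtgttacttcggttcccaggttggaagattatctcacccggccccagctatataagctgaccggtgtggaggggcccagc
NUAK2 (chr1:205321746-205321995, - strand): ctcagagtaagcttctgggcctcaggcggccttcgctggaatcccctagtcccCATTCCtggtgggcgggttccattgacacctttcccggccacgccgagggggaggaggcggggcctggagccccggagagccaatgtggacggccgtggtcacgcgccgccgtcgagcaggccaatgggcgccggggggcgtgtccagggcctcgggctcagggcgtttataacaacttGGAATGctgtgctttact
CCN2 has 3 matches, whose first bases lie 169, 104 and 95 bases before the start, a number reached or passed by 0.146% of the 27305 promoters of the table. ANKRD1 has 2 matches (220 and 128 bases before the start) and NUAK2 2 (197 and 18 bases before), a number reached or passed by 1.37% of promoters. A single match was found in YAP1, PTPN14 and LATS2, so that 6 of 25 members, or 24%, held 1 or more, where 14.0% of all promoters did. WWTR1, AXL and FAT1, which rose, had 0 matches in this window. For WWTR1 the window (chr3:149703224-149703523) lay inside the gene's span (chr3:149517235-149724788), so its outermost start was not searched. The windows of FRMD6, AMOTL1 and VGLL4, among others, also lay inside their genes. A match is a stretch of letters and was not tested as a binding site.

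Close relatives within the list were set side by side as a log2 ratio within each array. The ratio of WWTR1 to YAP1 was -1.78 and -1.71 in the mimic arrays and -3.21 and -3.00 in the controls, a shift of 1.36. That of CCN2 to CCN1 was -2.55 and -2.54 against -3.57 and -3.49, a shift of 0.98. STK3 over STK4 moved by 0.65, TEAD4 over TEAD3 by 0.63 and MOB1B over MOB1A by 0.39. In each of these 5 pairs the mimic arrays lay above the controls. The gene with the higher difference was put first in each ratio, so the shared direction follows from that choice. Relatives with similar differences, such as AJUBA (0.43) and LIMD1 (0.45) or AMOTL1 (0.12) and AMOTL2 (0.11), were not paired. The pairs were chosen after the values were seen, and an exact two-sided permutation test of 2 against 2 arrays gave p = 0.333 for each, the smallest it allows. The ratio's level depends on the probes and only its shift between arrays is comparable.

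**Figure D4:**
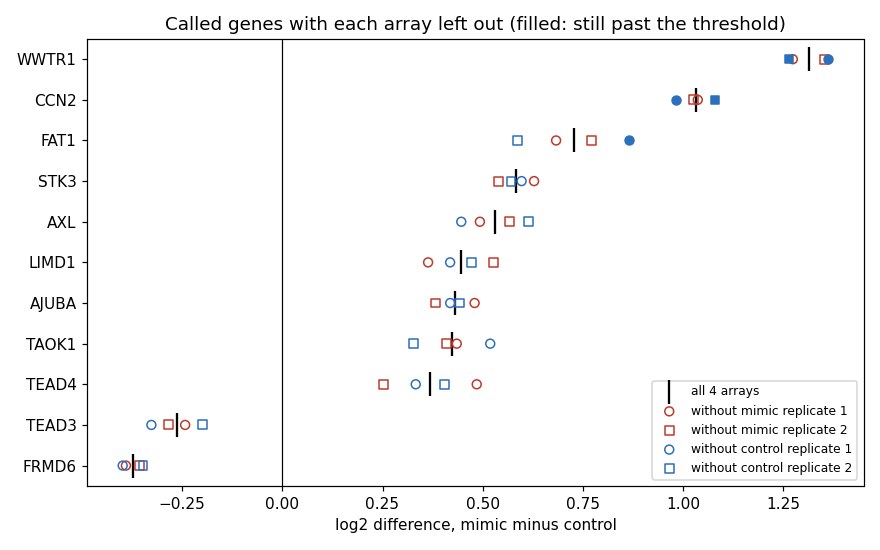
Log2 difference, mimic minus control (horizontal axis), of the 11 called genes with all 4 arrays (black bar) and with each array left out (red, a mimic array; blue, a control array; circle, replicate 1; square, replicate 2). Filled symbols were still past the threshold: both left-out controls for WWTR1 and CCN2 and control replicate 1 for FAT1.

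Genes of the pathway beyond the members were read from a further list of 50 regulators, of which 41 were tested. Of these, 8 rose, 7 fell and 26 did not pass, and their median difference was -0.04; of all genes, 17.7% rose and 12.3% fell. The split depended on scaling, with 6 higher and 12 lower after the further quantile normalization. SLMAP and SIKE1 encode partners in the STRIPAK complex, which recruits a phosphatase to MST kinases. SLMAP rose from 5.92 and 5.82 to 6.95 and 6.94 (1.08 ± 0.064 SE, adjusted p = 0.00133) and SIKE1 from 5.72 and 5.65 to 6.62 and 6.56 (0.91 ± 0.064, adjusted p = 0.00189, limma). Each had 2 tested probe sets, both positive. The striatin genes STRN (-0.19), STRN3 (-0.02) and STRN4 (-0.02), which encode the phosphatase-binding subunits of that complex and are named here after their values were seen, did not pass. The cadherin gene FAT2, a relative of FAT1, rose by 0.90 ± 0.13 (SE), and WWC2, a relative of WWC1, by 0.59 ± 0.070. The LATS-related kinase genes STK38 (-0.63 ± 0.077) and STK38L (-0.44 ± 0.056) fell, and all 4 probe sets of STK38L were negative. Of these 6 genes, SLMAP and SIKE1 still passed on leaving out either control array and FAT2 without control replicate 1; without either mimic array none passed in limma, and the signs held with any array left out.

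Of 22 other genes described as YAP/TAZ targets, 19 were tested, with 10 called higher, 3 called lower and 6 not called, where 17.7% and 12.3% of all genes were called higher and lower, and a median difference of 0.30 against -0.02 for all genes. NT5E, the gene of the ectonucleotidase CD73, rose by 1.07 ± 0.12 (SE), although its second probe set gave 0.03. The matricellular gene THBS1 rose by 0.67 ± 0.076, with 2 of 4 probe sets negative, IGFBP3 by 0.66 ± 0.11 and the tissue factor gene F3 by 0.63 ± 0.066, with all 3 probe sets positive. BIRC5, which also acts in mitosis and is regulated with the cell cycle, rose by 0.80 ± 0.099, with 9 of 11 probe sets positive. TGFBR2, a TGF-beta receptor gene, fell by 0.84 (SE 0.078; from 9.01 and 9.01 to 8.26 and 8.09), and both of its probe sets were negative. With control replicate 1 left out BIRC5 alone of the named targets still passed, and with control replicate 2 left out NT5E and BIRC5; without either mimic array 0 of the 19 passed in limma, with 14 and 12 at an unadjusted p under 0.05. The median stayed between 0.21 and 0.31 in all 14 alternatives, the lowest after quantile normalization. The list was chosen with earlier results of these data known, and the alternatives reuse the same arrays. Neither its shares nor their stability is therefore independent support. The genes of the list have other regulators, and the list was described by its counts alone.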

How the data were processed

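Total RNA of 4 samples (2 mimic, 2 control; 2 µg each, per the labels' protocols) was read on 1-colour arrays. The authors deposited 1 intensity per probe set and array, made with RMA per the submitters' processing notes; the sources used here name neither its software nor its settings. Values were linear (1.62 to 11401, array medians 17.2 to 17.6), so log2 was taken. No detection calls were used, and RMA compresses differences of dim probe sets. Array number limits the precision. Of 49293 probe sets, 44988 had 1 gene symbol, 1832 several and 2473 none; 44961 were matched by identifier to RefSeq (GRCh38.p14) and 27 were named by the annotation alone. The 30% of probe sets with the lowest mean (log2 below 2.83) were left out as dim, and the brightest remaining probe set stood for a gene (14340 of 18132 genes).

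The test was limma 3.58.1 (R 4.3.3; lmFit and eBayes, 4.98 total degrees of freedom), mimic against control, with Benjamini-Hochberg adjustment over all genes, or over all 31711 probe sets of 1 gene above the filter, at 0.05. Every adjusted p and 95% interval is limma's. The fit was tested on simulated data. The simulated noise was normal and independent between arrays, and fewer genes were changed than were called here, so the simulation does not test these calls. Members, gene lists and tests were chosen with earlier results of these data known. All members were named whatever their values, and of each further list up to 6 called genes by size. Alternatives were the filter, scaling, log offset, probe set choice, variance model, a replicate block and each array left out. Replicate numbers are not said to pair samples.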

Additional observations from a re-analysis of the deposited data

Results flagged for a closer look

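The probe set that the annotation assigns to both AKIP1 and NUAK2 is no member, since it names 2 genes, and was in no test. It was at 7.60 and 7.53 in the mimic arrays and at 7.09 and 7.37 in the control arrays, higher by 0.33, whereas the probe set of NUAK2 alone differed by -0.32.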

How the results depend on the processing

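All 11 called member genes kept their direction in every alternative that gave them a value, and 7 of them (WWTR1, CCN2, FAT1, AXL, AJUBA, LIMD1 and FRMD6) kept their call in each such alternative other than a left-out array. Over 386 pairs of a gene and an alternative, 316 gave the same call and direction, 46 lost a call, 14 gained one and 10 turned sign. The count of called member genes fell from 11 to 5 without _s_at and _x_at probe sets, where 24 were tested and CCN2, FAT1, LIMD1 and FRMD6 had no tested probe set, and ranged from 0 to 3 with an array left out (limma; 10 to 13 at an unadjusted p under 0.05), where the lone array is assumed to vary like the others. The count of called probe sets, 16, was 25 with log2 of intensity plus 16, 7 without _s_at and _x_at probe sets, 9 with the replicate block and 0 with any array left out (16 to 23 at an unadjusted p under 0.05). With the replicate block 10 member genes were called. The deviations of same-numbered arrays correlated at -0.01 over probe sets. Probe sets are not independent and each group gives a single deviation, so this cannot decide whether the numbers pair the arrays. The differences that turned sign were those of uncalled genes: AMOTL2 (-0.0022) and CCN1 (-0.053) after quantile normalization, TEAD1 (-0.36) without _s_at and _x_at probe sets, and TEAD1 (-0.13) and AMOTL2 (-0.039) with the mean of a gene's probe sets. With an array left out YAP1 ranged from -0.20 to 0.11, CRIM1 from -0.10 to 0.046 and ARHGEF17 from -0.12 to 0.093. The 12 named genes of the further lists kept their direction in all alternatives that gave them a value, which for these were chosen after seeing the data, and apart from left-out arrays the only call lost there was that of THBS1 with the mean of its probe sets (0.27). The causes were not tested. Dim probe sets limit what can be said of LATS1, AMOT, PTPN14 and ANKRD1.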
